A study of Mus musculus with 6 samples.

Results

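The Wnt ligands, their receptors and co-receptors, the R-spondin axis, the secreted antagonists and 5 effectors or target genes were compared between the vestibular and the cochlear sensory epithelium of the newborn mouse ear. They were taken from a list of 48 genes, through the probe sets annotated to exactly 1 of these genes, and each gene was represented by its probe set with the highest mean over all arrays (its brightest probe set). Of the 48 genes, 47 had such a probe set (93 probe sets in all), out of 18193 named genes on the array, and Tcf7 was not analysed here. The mice were wild type, of strain C3H and at postnatal day 2, and 3 arrays read vestibule and 3 cochlea. Vestibular tissue stood for utricle, saccule, and 2 of the cristae (anterior, lateral), each pool held tissue from 10 to 12 inner ears, and both tissues kept their underlying mesenchyme and attached neurons. Values are log2 expression levels, differences are vestibule minus cochlea on that scale, and a positive difference stands for a gene higher in the vestibule. The labels number the 3 arrays of a tissue as replicates without naming their pool, and the methods speak of 3 pools as well as of replicates within experiments, so p-values cover array to array spread only, part of which may be technical.

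Wnt proteins are lipid-modified secreted ligands that bind Frizzled receptors together with the co-receptors Lrp5 or Lrp6. In the canonical branch this binding stops the breakdown of beta-catenin, which then enters the nucleus and switches on target genes such as Axin2 with the TCF and LEF factors. R-spondins bind Lgr4, Lgr5 or Lgr6 and remove the ubiquitin ligases Rnf43 and Znrf3, which otherwise clear Frizzled from the cell surface, while secreted antagonists catch the ligand (Sfrp proteins, Frzb, Wif1) or block the co-receptor (Dkk1). In the inner ear Wnt signals help to pattern the dorsal, vestibular side of the otocyst and to orient hair bundles, and Lgr5 marks supporting cells of the neonatal cochlea that can give rise to hair cells.

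Since TCF and LEF factors bind a short DNA motif, the promoter windows of the members were searched for it, and the sites of 4 called members that lie upstream of the start are shown for their sequence context. The window, from RefSeq on the GRCm38.p6 build, runs from 250 bases before to 50 bases after the start of a gene, and 33 members had 42 windows. The search covered both strands for 4 forms of the motif. These were CTTTGAT, present in 3.73% of all 32851 windows, then CTTTGTT, present in 5.85%, then CTTTGAA, present in 5.14%, and last CTTTGTA, present in 3.63%. Wnt3, also called, had a CTTTGTT after the start, and Dkk1, which was not tested, had sites upstream. Those of Wnt3 and Dkk1 are not shown. The 4 sites shown lie upstream of the start, are written on the strand of the gene, and carry the motif or its reverse complement in capitals.
Wnt11 (chr7:98835051-98835077, + strand): acgtgggcggATCAAAGcgacggtccg
Wnt5b (chr6:119449441-119449467, - strand): gtaagtctctCTTTGATctgctccctg
Fzd7 (chr1:59482007-59482033, + strand): ccacagagaaAACAAAGcgcgctattg
Lef1 (chr3:131156137-131156163, + strand): aacctcagaaTACAAAGtaggattgca
At least 1 of the motifs stood in 6 of the 42 member windows (14.3%) and in 16.9% of all 32851 windows. The share among the members was thus not above that among all genes, and a match is a stretch of letters, not a measured binding site.

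The arrays of a tissue correlated at 0.993 for the vestibule and at 0.981 to 0.988 for the cochlea, against 0.945 to 0.961 across tissues. All 10 hair cell markers listed were above the filter in these tissues, 6 of them higher in the vestibule and 1 (Pvalb) in the cochlea. Markers of other cell types differed between the tissues too. On a linear scale, the summed level of 9 macrophage markers was 6040 to 7450 on the vestibular and 1740 to 2110 on the cochlear arrays, and that of 7 melanocyte markers was 2090 to 2440 in the vestibule and 745 to 1160 in the cochlea. The sum over 10 mesenchyme markers was 43000 to 48300 in the vestibule and 25800 to 35100 in the cochlea, and that over 9 neuronal markers was 4260 to 4730 in the vestibule and 9240 to 9860 in the cochlea. The 10 supporting cell markers had no common direction, with 1 (S100a1) called towards the vestibule, 4 towards the cochlea and 5 not called. Their sum, 21300 to 23500 in the vestibule and 26800 to 32300 in the cochlea, rested on Tectb. The other 9 summed to 15100 to 15800 in the vestibule and 10400 to 13200 in the cochlea. Of these 9 S100a1 was the brightest, at log2 means of 13.23 in the vestibule and 12.07 in the cochlea. Neither sum therefore gives a direction for the list. Leaving out the brightest marker, a step added after seeing the data, turned no direction among the macrophage, melanocyte, mesenchyme and neuronal lists. The 6 dark and marginal cell markers summed to 13200 to 18000 in the vestibule and 11100 to 12300 in the cochlea. Without Slc12a2, the brightest, the others summed to 4670 to 6380 in the vestibule and 966 to 1470 in the cochlea. The 8 endothelial markers summed to 2320 to 2760 in the vestibule and 1220 to 1990 in the cochlea. The part of these cell types in the differences below was not tested, and fewer cells of a type and less RNA per cell cannot be told apart in pooled tissue.

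Of the 47 measured members 43 were bright enough to be tested, and 24 of these 43 differed between the tissues, 14 higher in the vestibule against 10 in the cochlea. A gene counted as called at a limma adjusted p under 0.1, corrected over all tested probe sets, and a fold of at least 1.3. Over all 14184 genes tested by their brightest probe set 23.1% were called, 15.1% towards the vestibule plus 7.97% towards the cochlea, beside 55.8% of the 43 members. Of all single probe sets tested 19.4% were called. The arrays of the tissues did not overlap for 27 members (62.8%), which include all 24 called members, and for 32.3% of all genes tested. A log2 difference of at least 1 in either direction was reached by 11 members (25.6%) and by 8.39% of all genes tested. The members were listed with earlier results of these data known, so these shares describe the list and do not test it. The median difference of the 43 members was 0, against 0.03 over all genes tested. Wnt3 and Rspo1 passed the filter only through the tissue in which they were high. The counts moved with single arrays. Without cochlea replicate 3 the vestibule count was 8, without any 1 vestibular array it was 9, and without vestibule replicate 1 or 3 the cochlea count was 6. Of the 24 called members 14 kept their call under each of the alternatives that tested them, and Wnt4, Wnt7a, Fzd5, Fzd7, Fzd8, Lgr4, Lgr6, Sfrp4, Frzb and Lef1 lost it under at least 1. Among the 14, Wnt3, Wnt5b, Wnt11, Rspo1 and Wif1 were not tested under every alternative. None of the 24 turned its direction under any of the 17 alternatives run, but most of these could not turn it. Arrays that do not overlap keep their direction when 1 is left out. The filters, thresholds, variance trend and replicate block leave the difference of a probe set unchanged.

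**Figure D1:**
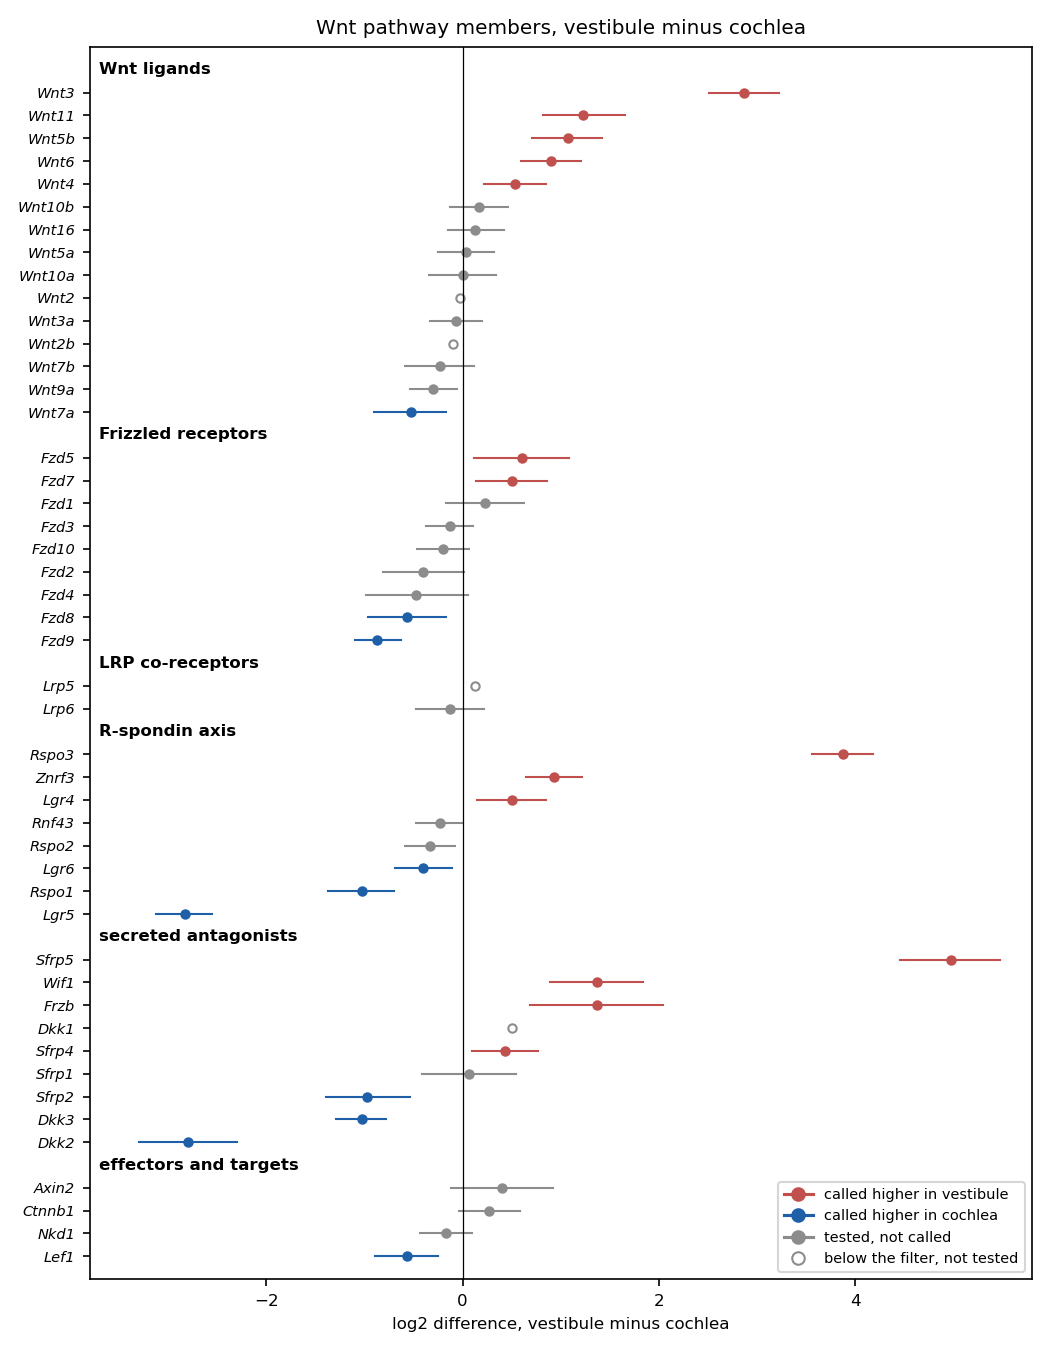
Log2 difference (vestibule minus cochlea, horizontal axis) of each of the 47 measured members, grouped by role, with 95% confidence intervals from limma over 3 arrays of each tissue and colours for the call. Sfrp5 and Rspo3 lie farthest towards the vestibule at 4.97 and 3.87, and Lgr5 and Dkk2 farthest towards the cochlea at -2.83 and -2.80, while open points mark 4 members below the filter.

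Of the 13 tested Wnt ligands 5 were higher in the vestibule, 1 was higher in the cochlea and 7 were not called. Over all genes tested 15.1% were called towards the vestibule and 7.97% towards the cochlea. Wnt3, a ligand of the canonical branch, read 6.7, 6.3 and 6.8 on the vestibular arrays and 3.6, 3.9 and 3.7 on the cochlear arrays. No cochlear array came within 2 log2 units of a vestibular array. The difference was 2.87 (standard error 0.16, limma adjusted p = 7.97e-06), a fold of 7.29. The cochlear values lay below 4.68, the lowest mean level tested, so the fold may be understated, and the single probe set of Wnt3 bears the array's suffix (_x_at) for probes that may also bind other transcripts. Wnt11, a ligand known for the non-canonical branch, read 6.5, 6.6 and 6.3 in the vestibule and 5.2, 5.6 and 4.9 in the cochlea. Its arrays did not overlap, and the difference was 1.23 (standard error 0.18, limma adjusted p = 0.00178). Wnt5b, another mostly non-canonical ligand, read 7.0, 6.9 and 6.5 in the vestibule and 5.7, 5.6 and 5.9 in the cochlea, differing by 1.07 (standard error 0.16, limma adjusted p = 0.00178). Its other probe set stood at 0.80 and was called the same way. The brightest also bears the suffix _x_at and the other the suffix _a_at. When probe sets with suffixes of these kinds were left out, none remained for Wnt5b.

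Wnt6 was higher in the vestibule by 0.90 (standard error 0.14, limma adjusted p = 0.00223), with 7.4, 7.8 and 7.4 on the vestibular arrays and 6.6, 6.6 and 6.7 on the cochlear arrays. The other probe set of Wnt6, with the suffix _x_at, stood at 1.27. Wnt4 was higher by 0.53 (standard error 0.14, limma adjusted p = 0.0303), and its other probe set stood at 0.70. Its call was lost without vestibule replicate 2 (0.42, adjusted p = 0.107) or cochlea replicate 3 (0.47, adjusted p = 0.101). Wnt7a, a secreted ligand of the same family, was the only ligand called higher in the cochlea, at 8.40 ± 0.10 in the vestibule and 8.93 ± 0.31 in the cochlea (SD, n = 3 each), differing by -0.53 (limma adjusted p = 0.0574). This call was lost without vestibule replicate 1 (adjusted p = 0.192), 2 (0.134) or 3 (0.218) or cochlea replicate 1 (0.178) or 2 (0.133), and averaged over its probe sets Wnt7a stood at -0.37, under the minimum fold.

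The other 7 tested ligands did not pass the thresholds. Wnt9a stood at -0.30 (95% confidence interval -0.54 to -0.06, limma adjusted p = 0.0989), with 7.6, 7.7 and 7.7 in the vestibule and 8.0, 8.0 and 7.9 in the cochlea. Its arrays did not overlap, but the difference was under the minimum fold of 1.3. Wnt7b had an interval of -0.59 to 0.12, Wnt10a of -0.34 to 0.34, Wnt3a of -0.33 to 0.20, Wnt10b of -0.13 to 0.46 and Wnt16 of -0.15 to 0.42. The brightest probe set of Wnt5a, the ligand best known for planar polarity in the cochlea, stood at 0.03 (95% confidence interval -0.25 to 0.32). A second probe set of Wnt5a was called higher in the vestibule at 0.77 (limma adjusted p = 0.0429), and the remaining ones stood at 0.53 and -0.03 without a call. Wnt2 and Wnt2b had mean levels of 4.43 and 4.30 in the vestibule and 4.47 and 4.4 in the cochlea, below the filter, and were not tested.

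Some of the ligand genes neighbour each other on their chromosome (RefSeq, GRCm38.p6). Wnt6 and Wnt10a lie side by side on chromosome 1 and stood at 0.90 and 0. Wnt3 has Wnt9b, a ligand outside the list, as its neighbour on chromosome 11, where Wnt3 stood at 2.87 and Wnt9b at 0.23 without a call. The pair Wnt3a and Wnt9a, on chromosome 11 as well, stood at -0.07 and -0.30. Wnt10b, on chromosome 15, stood at 0.17, and its neighbour Wnt1, outside the list, was below the filter. Of genes other than ligands, Kremen1 (outside the list) and Znrf3 are neighbours on chromosome 11. They stood at 0.40 and 0.93, both called higher in the vestibule, and the losses of the Kremen1 call are given below. The difference between neighbours was not itself tested.

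The Frizzled receptors, the seven-pass membrane proteins that bind the ligand, were called in both directions, with 2 of 9 higher in the vestibule, 2 in the cochlea and 5 not called. Of all genes tested 23.1% were called in either direction. Fzd9 read 8.1 on each of the 3 vestibular arrays and 9.0, 8.9 and 9.0 on the cochlear arrays. The cochlear values lay within 0.1 of each other, and the difference was -0.87 (standard error 0.10, limma adjusted p = 5.7e-04). Fzd8 was also higher in the cochlea, at 8.0, 8.1 and 7.8 in the vestibule and 8.3, 8.9 and 8.4 in the cochlea, differing by -0.57 (limma adjusted p = 0.0582), and its dimmer probe set had a larger difference of -1.57 (limma adjusted p = 0.0015). Fzd5 read 8.1, 7.8 and 7.7 in the vestibule and 7.4, 7.6 and 6.8 in the cochlea, differing by 0.60 (limma adjusted p = 0.0948). Cochlea replicate 3 was the lowest of these 6 values. Fzd7 was higher in the vestibule by 0.50 (limma adjusted p = 0.0707).

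The calls of Fzd5, Fzd7 and Fzd8 were near the threshold and needed nearly all the arrays. That of Fzd5 was lost without vestibule replicate 1 (adjusted p = 0.329), 2 (0.218) or 3 (0.184) or cochlea replicate 1 (0.18) or 3 (0.202, at 0.37), and also with no filter (0.127) and with median centring (0.138). That of Fzd7 was lost without vestibule replicate 1 (adjusted p = 0.219), 2 (0.232) or 3 (0.161) or cochlea replicate 1 (0.178) or 3 (0.162), and with median centring (0.123), and the mean of its probe sets stood at 0.33, under the minimum fold. That of Fzd8 was lost without vestibule replicate 1 (adjusted p = 0.185), 2 (0.127) or 3 (0.231) or cochlea replicate 3 (0.117).

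Of the uncalled receptors, Fzd4, a receptor of the retinal and cochlear vasculature, stood at -0.47 (95% confidence interval -0.98 to 0.05), with 8.4, 8.2 and 8.4 in the vestibule and 9.3, 8.3 and 8.8 in the cochlea. Cochlea replicate 2 was within the vestibular range, and without it Fzd4 was called at -0.72 (adjusted p = 0.047), as it was with array weights at -0.68 (adjusted p = 0.041). Fzd2 stood at -0.40 (-0.81 to 0.01), and of its other probe sets 1 was called higher in the cochlea at -0.50 (limma adjusted p = 0.0274). With the mean of its probe sets Fzd2 was called at -0.44 (adjusted p = 0.0573), and with quantile normalization run again at -0.48 (adjusted p = 0.0919). Fzd1 had a 95% confidence interval of -0.17 to 0.63, Fzd10 of -0.46 to 0.06 and Fzd3 of -0.37 to 0.11. Fzd3 acts with the planar polarity proteins, and 1 dimmer probe set of Fzd3 was called higher in the vestibule at 0.47. The co-receptor Lrp6 stood at -0.13 (95% confidence interval -0.48 to 0.22), and Lrp5, at 4.30 in the vestibule and 4.17 in the cochlea, was below the filter.

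**Figure D2:**
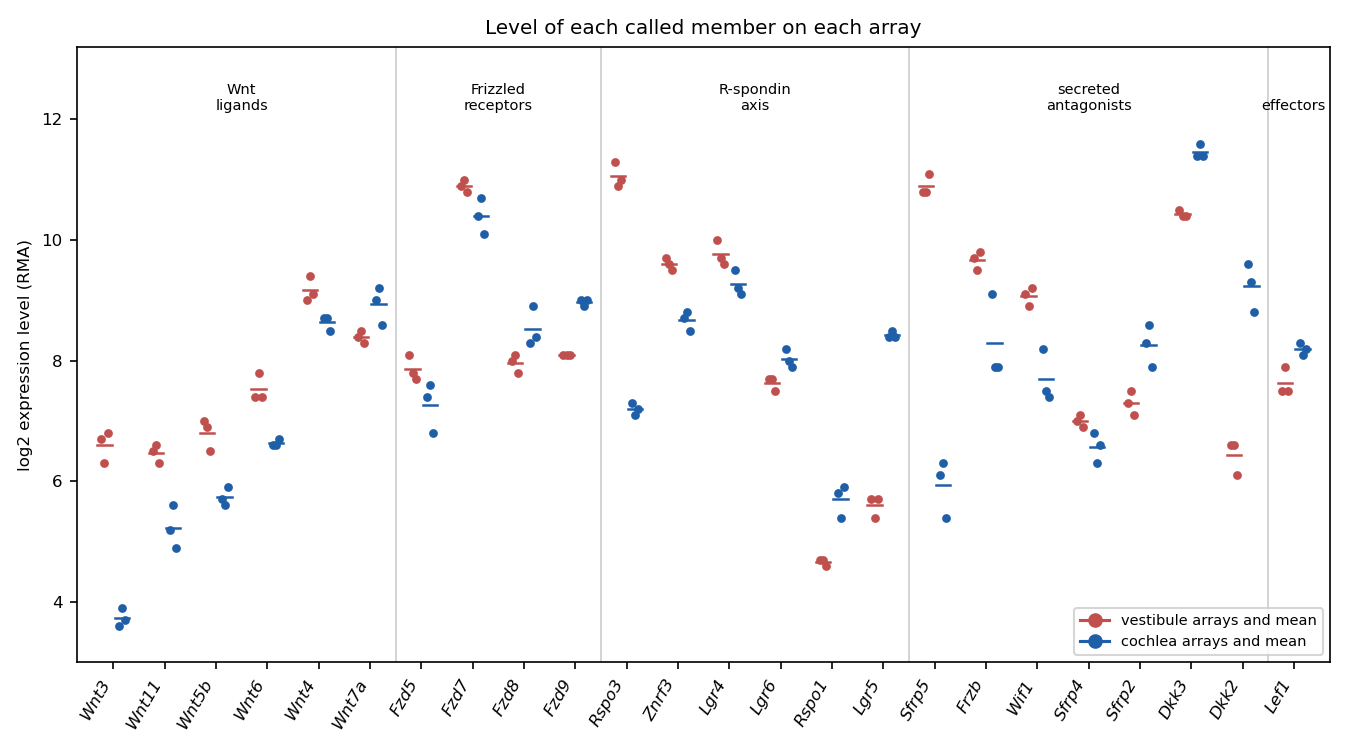
Log2 level (vertical axis) of each called member on each of the 3 vestibular and 3 cochlear arrays, with short bars at the means and members grouped by role. Levels can be compared between tissues but not between genes, since each gene has its own probes. The points of the tissues do not overlap for any of the 24 genes, and Frzb, at 7.9 to 9.1, spreads the most among the cochlear arrays.

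In the R-spondin axis 3 of 8 tested genes were higher in the vestibule, 3 were higher in the cochlea and 2 were not called, and the ligand genes as well as the receptor genes were called in both directions. The share called over all genes tested was 23.1%. Rspo3, a secreted enhancer of Wnt signalling, read 11.3, 10.9 and 11.0 in the vestibule and 7.3, 7.1 and 7.2 in the cochlea. The lowest vestibular value was 10.9 and the highest cochlear value 7.3. The difference was 3.87 (standard error 0.14, limma adjusted p = 1.24e-06), a fold of 14.6, and the dimmer probe set of Rspo3 stood at 1.40 (limma adjusted p = 0.00104). Rspo1 went the other way, with 4.7, 4.7 and 4.6 in the vestibule and 5.8, 5.4 and 5.9 in the cochlea, differing by -1.03 (standard error 0.15, limma adjusted p = 0.00147). Its vestibular values were near the lowest mean level tested, so this difference may be understated. Rspo2 read 10.2, 10.2 and 10.1 in the vestibule and 10.4, 10.6 and 10.5 in the cochlea, and at -0.33 (95% confidence interval -0.59 to -0.08, limma adjusted p = 0.08) it was under the minimum fold. Without cochlea replicate 1 Rspo2 was called, at -0.38 (adjusted p = 0.0752), and with quantile normalization run again at -0.42 (adjusted p = 0.031).

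Among the receptors of R-spondins, Lgr5 read 5.7, 5.4 and 5.7 in the vestibule and 8.4, 8.5 and 8.4 in the cochlea. The cochlear values lay within 0.1 of each other, and no vestibular value reached 6. The difference was -2.83 (standard error 0.12, limma adjusted p = 2.59e-06), a fold of 7.13. It was measured by 1 tested probe set, since the other was below the filter at 4.5 in the vestibule and 4.87 in the cochlea. Lgr6, a close relative, was higher in the cochlea by less, with 7.7, 7.7 and 7.5 in the vestibule and 8.2, 8.0 and 7.9 in the cochlea, differing by -0.40 (limma adjusted p = 0.0665). Lgr4, the most broadly used of these receptors, was higher in the vestibule, with 10.0, 9.7 and 9.6 there and 9.5, 9.2 and 9.1 in the cochlea, differing by 0.50 (limma adjusted p = 0.0603). The 3 receptor genes therefore did not share a direction.

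The calls of Lgr4 and Lgr6 were lost without single arrays. That of Lgr4 was lost without vestibule replicate 1 (adjusted p = 0.226), 2 (0.149) or 3 (0.105) or cochlea replicate 2 (0.14) or 3 (0.185), and with array weights (0.108). That of Lgr6 was lost without vestibule replicate 1 (adjusted p = 0.148), 2 (0.134) or 3 (0.219) or cochlea replicate 1 (0.159), and when its probe sets were averaged (-0.27, adjusted p = 0.101). Of the membrane ubiquitin ligases that R-spondins remove, Znrf3 read 9.7, 9.6 and 9.5 in the vestibule and 8.7, 8.8 and 8.5 in the cochlea. Its arrays were well apart, and the difference was 0.93 (standard error 0.12, limma adjusted p = 0.00101). Its relative Rnf43 read 7.2, 7.1 and 7.2 in the vestibule and 7.4 on each cochlear array. That difference, -0.23 (95% confidence interval -0.47 to 0.00, limma adjusted p = 0.181), did not pass the test.

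The secreted antagonists held the largest difference of the 43 tested members, that of Sfrp5, and 7 of the 8 tested were called, 4 higher in the vestibule against 3 in the cochlea. Over all genes tested the share called was 23.1%. Sfrp5, a decoy that binds Wnt ligands, read 10.8, 10.8 and 11.1 in the vestibule and 6.1, 6.3 and 5.4 in the cochlea. The gap between the closest arrays was wide, at 10.8 against 6.3. The difference was 4.97 (standard error 0.22, limma adjusted p = 2.83e-06), a fold of 31.3. The dimmer probe set of Sfrp5 stood at 1.60 (limma adjusted p = 3.41e-04), and the mean of both at 3.28. Frzb, a further decoy of the family, read 9.7, 9.5 and 9.8 in the vestibule and 9.1, 7.9 and 7.9 in the cochlea, differing by 1.37 (standard error 0.30, limma adjusted p = 0.0138). Cochlea replicate 1 stood apart from the other cochlear arrays and near the vestibular ones. The call of Frzb was lost without vestibule replicate 1 (1.35, adjusted p = 0.102) or 3 (1.3, 0.102) or cochlea replicate 3 (1.17, 0.104), while its dimmer probe set was called at 1.3 (limma adjusted p = 0.00157).

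Wif1, which binds Wnt ligands through a domain of its own type, read 9.1, 8.9 and 9.2 in the vestibule and 8.2, 7.5 and 7.4 in the cochlea. As for Frzb, cochlea replicate 1 was the highest cochlear array. The difference was 1.37 (standard error 0.21, limma adjusted p = 0.00215). Sfrp4 stood at 0.43 (limma adjusted p = 0.0853), with 7.0 ± 0.1 in the vestibule and 6.57 ± 0.25 in the cochlea (SD, n = 3 each). Its call was lost without vestibule replicate 1 (adjusted p = 0.233), 2 (0.254) or 3 (0.167) or cochlea replicate 2 (0.138) or 3 (0.169), with no filter (0.104) and with array weights (0.127).

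Sfrp2 was higher in the cochlea, with 7.3, 7.5 and 7.1 in the vestibule and 8.3, 8.6 and 7.9 in the cochlea, differing by -0.97 (standard error 0.19, limma adjusted p = 0.00806), so that members of the Sfrp family were called in opposite directions. Sfrp1, at 11.0, 10.9 and 11.0 in the vestibule and 10.8, 11.4 and 10.5 in the cochlea, was not called by its brightest probe set (0.07, 95% confidence interval -0.41 to 0.54). The cochlear arrays of this probe set spread above and below the vestibular ones. Of the other 4 probe sets of Sfrp1, 3 were called higher in the cochlea, at -0.47, -0.50 and -0.63, so its value depended on the probe set.

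Both tested Dkk genes among the members were higher in the cochlea. Dkk2, which acts on the Lrp co-receptors and can inhibit or activate the pathway, read 6.6, 6.6 and 6.1 in the vestibule and 9.6, 9.3 and 8.8 in the cochlea. The highest vestibular array was well below the lowest cochlear array. The difference was -2.80 (standard error 0.22, limma adjusted p = 5.54e-05), a fold of 6.96. Dkk3, a divergent relative whose link to Wnt signalling is unsettled, read 10.5, 10.4 and 10.4 in the vestibule and 11.4, 11.6 and 11.4 in the cochlea, differing by -1.03 (standard error 0.11, limma adjusted p = 3.52e-04), and its other probe set stood at -0.87. Dkk1, the classical inhibitor of the co-receptors, was below the filter at 5.0, 4.8 and 4.7 in the vestibule and 4.3, 4.3 and 4.4 in the cochlea. Its arrays did not overlap, and with no filter it was called at 0.50 (limma adjusted p = 0.0232).

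Of the 4 tested effectors and target genes 1 was called, Lef1, where 23.1% of all genes tested were called. Axin2, a feedback inhibitor widely used as a readout of canonical signalling, read 9.9, 10.1 and 9.9 in the vestibule and 9.5, 10.1 and 9.1 in the cochlea. Cochlea replicate 2 was as high as the highest vestibular array, and at 0.40 (95% confidence interval -0.12 to 0.92, limma adjusted p = 0.294) Axin2 did not pass the test. Without cochlea replicate 2 Axin2 was called, at 0.67 (adjusted p = 0.0411). Nkd1, another feedback inhibitor, stood at -0.17 (-0.43 to 0.10), although 1 of its 3 dimmer probe sets was called higher in the vestibule at 0.47 (limma adjusted p = 0.0339). Lef1, a DNA-binding partner of beta-catenin and itself a target, read 7.5, 7.9 and 7.5 in the vestibule and 8.3, 8.1 and 8.2 in the cochlea. Its arrays did not overlap, and the difference was -0.57 (standard error 0.14, limma adjusted p = 0.0263). Its call was lost without vestibule replicate 1 (-0.50, adjusted p = 0.133) or 3 (-0.50, 0.127) or cochlea replicate 1 (-0.52, 0.106).

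Ctnnb1, which encodes beta-catenin, read 13.7, 13.5 and 13.6 in the vestibule and 13.5, 13.4 and 13.1 in the cochlea by its brightest probe set, differing by 0.27 (95% confidence interval -0.04 to 0.58). The other 2 probe sets stood at 0.80 and 1.00 without a call, and cochlea replicate 3 was low in both. In the dimmest of the 3, that array read 6.1 beside 8.1 on the other cochlear arrays and 8.3, 8.2 and 8.8 in the vestibule.

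**Figure D3:**
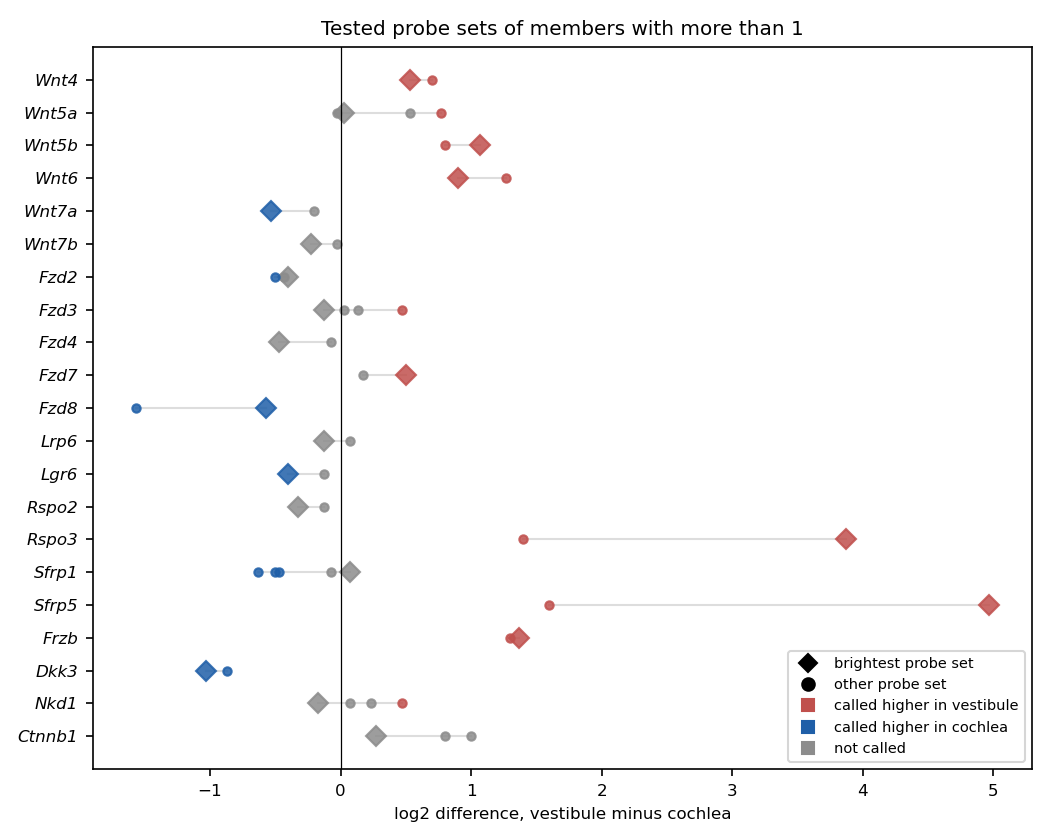
Log2 difference (vestibule minus cochlea, horizontal axis) of every tested probe set of the 21 members with 2 or more, with a diamond for the brightest probe set, circles for the others and colours for the call. No member had probe sets called in opposite directions, but in 5 members (Wnt5a, Fzd2, Fzd3, Sfrp1 and Nkd1) a dimmer probe set was called while the brightest was not.

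Probe sets of a gene did not always give the same size. Of the 21 members with at least 2 tested probe sets, 5 had differences of both signs, and in none of the 21 were probe sets called in both directions. The dimmer probe sets of Sfrp5 and Rspo3 gave smaller differences, 1.60 and 1.40, than the brightest ones, 4.97 and 3.87, and in the cochlea they read 5.90 and 4.6, while that of Fzd8 gave a larger one.

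Of 56 other genes of the pathway, 55 were measured and 48 tested, with 7 higher in the vestibule, 5 higher in the cochlea and 36 not called. The share called, 25%, was near the 23.1% called over all genes tested. The vestibule count was 2 without vestibule replicate 1 or 2, 3 without vestibule replicate 3 and 4 without cochlea replicate 3. The median difference over the 48 was 0.03, the same as over all genes tested. Of 15 genes of the cytoplasmic relay and the complex that destroys beta-catenin only Apc, a scaffold of that complex, was called, at 0.50 (limma adjusted p = 0.0838). Its call was lost without vestibule replicate 1 (adjusted p = 0.287), 2 (0.134) or 3 (0.249) or cochlea replicate 2 (0.178) or 3 (0.228), and also with no filter (0.108), with median centring (0.106), with quantile normalization run again (0.104) and with weighted arrays (0.151). Of 12 tested genes of the nuclear complex only Bcl9, a co-activator of beta-catenin, was called, at 7.43 ± 0.15 in the vestibule and 8.17 ± 0.25 in the cochlea (SD, n = 3 each), differing by -0.73 (limma adjusted p = 0.0116).

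Of the 3 genes of ligand processing 1 was called in each direction. Notum, an enzyme that inactivates Wnt ligands by removing their lipid, read 6.2, 5.8 and 6.0 in the vestibule and 9.7, 9.2 and 8.3 in the cochlea, differing by -3.07 (standard error 0.31, limma adjusted p = 2.13e-04), and each cochlear array was above each vestibular one. Porcn, the enzyme that adds this lipid, was higher in the vestibule by 0.50 (limma adjusted p = 0.0216), while Wls, which carries the ligands to the surface, also stood at 0.50 but did not pass (limma adjusted p = 0.145). Of 6 tested further receptors and co-receptors 4 were higher in the vestibule (Ror1, Ror2, Fzd6 and Kremen1), of which Ror1 alone kept its call both without vestibule replicate 1 and without vestibule replicate 2. Ror1, a receptor kinase for Wnt5a, read 9.4, 9.5 and 9.4 in the vestibule and 7.7, 7.6 and 7.1 in the cochlea, differing by 1.97 (standard error 0.16, limma adjusted p = 7.52e-05), and the mean of its probe sets stood at 1.00.

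Its relative Ror2 stood at 0.50 (limma adjusted p = 0.0603) and Fzd6 at 0.53 (limma adjusted p = 0.0339). The call of Ror2 was lost without vestibule replicate 1 (adjusted p = 0.13), 2 (0.215) or 3 (0.174) or cochlea replicate 1 (0.172) or 2 (0.137), and that of Fzd6 without vestibule replicate 1 (0.154) or 2 (0.11). Kremen1, a receptor of Dkk proteins named after its value was seen, stood at 0.40 (limma adjusted p = 0.0825). Its call was lost without vestibule replicate 1 (adjusted p = 0.259), 2 (0.14) or 3 (0.215) or cochlea replicate 2 (0.133) or 3 (0.165), and also with median centring (0.119), with quantile normalization run again (0.14), with array weights (0.116) and, at 0.32, when its probe sets were averaged. Among 8 further feedback and target genes 1 was higher in the vestibule against 3 in the cochlea. Cd44, which encodes a hyaluronan receptor, stood at 7.17 ± 0.25 in the vestibule and 9.6 ± 0.46 in the cochlea (SD, n = 3 each), differing by -2.43 (limma adjusted p = 1.49e-04). Prickle1, a planar polarity gene counted in this list, was higher in the cochlea at -0.73 (limma adjusted p = 0.0067). Tnfrsf19, named after its value was seen, stood at -0.60 (limma adjusted p = 0.0425). The call of Tnfrsf19 was lost without vestibule replicate 1 (adjusted p = 0.182), 2 (0.166) or 3 (0.109) or cochlea replicate 1 (0.161) or 2 (0.121). Lbh, a transcriptional cofactor gene, was higher in the vestibule by 0.83 (limma adjusted p = 0.037), but the mean of its probe sets stood at 0.17 with no call, and the call was lost without vestibule replicate 1 (adjusted p = 0.194), 2 (0.113) or 3 (0.123) or cochlea replicate 2 (0.118) or 3 (0.169). The inhibitor genes Apcdd1, Dkkl1 and Sostdc1 were tested and not called.

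**Figure D4:**
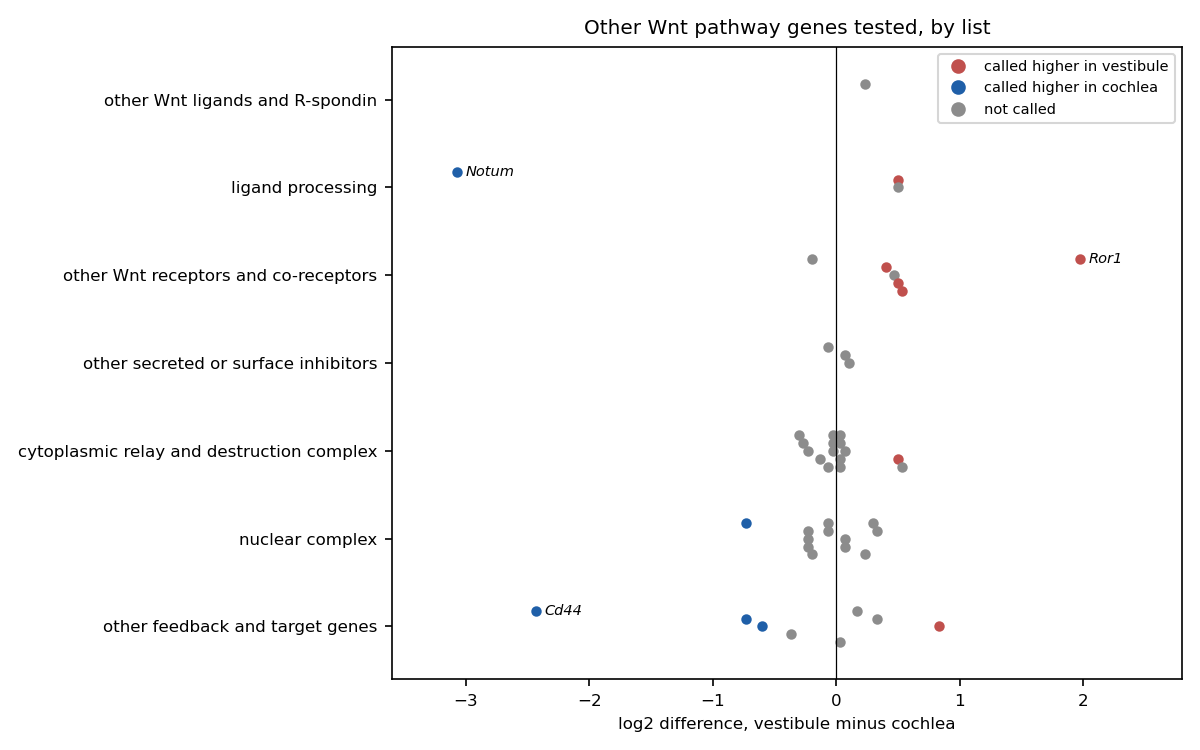
Log2 difference (vestibule minus cochlea, horizontal axis) of the 48 tested genes of the pathway outside the members, 1 point per gene, in 7 lists (rows) and coloured by the call. The genes of the cytoplasmic relay lie between -0.30 and 0.53, while Notum at -3.07, Cd44 at -2.43 and Ror1 at 1.97 lie apart.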

How the data were processed

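RNA of the 6 samples was amplified by the authors with a two-cycle kit and hybridised to Affymetrix mouse arrays. The authors deposited log2 expression values made by RMA with quantile normalization, with MAS5 for Present calls, and name no version in the sources used here. Deposited values are given to 1 decimal, lie between 2.8 and 15 (array medians 5.6 to 5.7) and were used as they stand. Of 45101 probe sets 64 controls were left out, and 34945 of the rest name 1 gene, 932 several and 9160 none (34741 symbols were matched through the Entrez number). In place of the study's filter on Present calls, which needs probe-level data, the same number of probe sets was kept by mean level, with a lowest mean of 4.68.

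Vestibule minus cochlea was fitted with limma 3.58.1 (lmFit, eBayes, two-sided) in R 4.3.3, tested first on simulated data, with Benjamini-Hochberg adjustment and the study's thresholds. Values per array were to be given for called members with a difference of at least 1 and for up to 2 called members of each role, and other pathway genes named for up to 3 called per list. Members shown beyond this rule, and genes named without a call, were picked with their values in view, and the members and lists with earlier results of these data known. Besides the pathway lists, 11 marker lists were fixed, of hair cells, supporting cells, mesenchyme, cartilage and bone, neurons, Schwann cells, endothelium, macrophages, melanocytes, dark and marginal cells, and red blood cells. Alternatives were 2 filters, 2 scalings, a variance trend, array weights, a replicate block, other thresholds, other rules for the value of a gene, and each array left out. Figures used Python 3.11.15 and matplotlib 3.10.9. The number of arrays, 3 per tissue, limits the precision.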

Additional observations from a re-analysis of the deposited data

How the results depend on the processing

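Counts of calls moved with the processing. When 1 array was left out, 8 to 13 members were higher in the vestibule and 6 to 10 in the cochlea, 2 to 6 other pathway genes were higher in the vestibule and 4 to 6 in the cochlea, and 2359 to 3865 of all probe sets were called towards the vestibule and 1415 to 2787 towards the cochlea. With probe sets averaged per gene, all calls numbered 2121 towards the vestibule and 1139 towards the cochlea. With an adjusted p under 0.05, 4 other pathway genes were higher in the vestibule. The labels do not say that a replicate number marks a shared pool or day. Deviations of same-numbered arrays correlated at 0.217, 0.153 and -0.001, and 4 of 6 arrays correlated best with their own number, which does not settle whether arrays of a number share an effect, and the reported fit has no block. With the replicate block 12 and 9 members, 4 and 4 other pathway genes and 2886 and 1796 probe sets were called towards the vestibule and the cochlea, where the fit without it called 14 and 10 members. The calls lost with the block were those of Fzd5 (adjusted p = 0.121), Sfrp4 (0.182), Lef1 (0.115), Ror2 (0.167), Kremen1 (0.106), Apc (0.113) and Tnfrsf19 (0.167). Directions turned only for members without a call, and most alternatives could not turn that of a called member. Wnt5a stood at -0.07 after a second quantile normalization and between -0.07 (without vestibule replicate 1) and 0.08 when 1 array was left out, Sfrp1 at -0.01 after that normalization, -0.32 with the mean of its probe sets and between -0.13 (without cochlea replicate 3) and 0.32 when 1 array was left out, and with the mean of their probe sets Fzd3 stood at 0.13 and Nkd1 at 0.15. The cause was not tested. No other scaling moved the median difference of all probe sets by more than 0.0333, but the balance of calls moved. Of all probe sets, 3563 were called towards the vestibule and 2184 towards the cochlea as reported. With median centring these counts were 3154 and 2550, and after a second quantile normalization 3249 and 2847.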

Other observations

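By calls of single marker genes, cartilage and bone had 4 of 7 tested genes called towards the vestibule and 1 towards the cochlea, endothelium 4 and 1 of 7, Schwann cells 2 and 1 of 6, dark and marginal cells 5 and 0 of 6, and red blood cells 1 and 0 of 2. Over all genes tested 15.1% were called towards the vestibule and 7.97% towards the cochlea.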
